A study of Mus musculus with 6 samples.

Results

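The cell cycle machinery described here is a set of 10 genes, taken by name from the 55421 genes of the deposited count table: the D-type cyclins *Ccnd1*, *Ccnd2*, and *Ccnd3*, their kinases *Cdk4* and *Cdk6*, the CDK inhibitors *Cdkn1a* (p21) and *Cdkn1b* (p27), and the pocket protein genes *Rb1*, *Rbl1* (p107), and *Rbl2* (p130). RNA was measured by RNA-seq in C2C12 cells, a mouse myoblast line, that carried a GFP reporter plasmid with a CTG tract, of 5 repeats in the normal group (CUG5) and of 200 in the DM1 group (CUG200). Both groups were at differentiation day 4, after the switch of confluent cells to low-serum medium with insulin, and each group had 3 libraries. Each group was 1 line made by plasmid transfection and G418 selection, so the repeat sits in a reporter and not in *Dmpk*, and the effect of the repeat and of the separate making of the lines cannot be told apart. The study calls the 3 libraries of a group biological replicates, without saying in the sources used here whether they were separate cultures of the 1 line, and the p-values measure only the spread between these libraries.

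D-type cyclins bind CDK4 or CDK6, and the active kinase phosphorylates RB1 and its relatives p107 and p130, which frees E2F factors to transcribe S-phase genes. p21 and p27 inhibit cyclin-dependent kinases, and they also help to assemble cyclin D-CDK complexes. When myoblasts differentiate they leave the cell cycle for good, with hypophosphorylated RB1 holding E2F target genes silent. In cultured myotubes cyclin D1 is known to fall while cyclin D3, p21, and RB1 accumulate.

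The libraries held 61707889 to 80957325 counts, in a unit of 75 bases of aligned sequence per count, and mitochondrial genes took 8.90% to 13.5% of them. Of the genes, 19005 had enough counts to be tested, and all 10 members were among them, with 1767 to 49822 counts per member and library. The muscle label was checked against marker genes. The 12 myotube genes summed to 12313 to 14635 TPM, a level scaled for transcript length, in the normal group and to 8208 to 9852 TPM in the DM1 group, with no gene at 0. Of the 11 tested genes of undifferentiated myoblasts, 5 fell, led by *Heyl* and *Cdh15* (-1.61 and -0.95 on the log2 scale), and 1, *Id2*, rose. With a library removed 3 to 6 fell, 3 without CUG5 replicate 3, and *Id2* passed only without CUG200 replicate 3. The 8 fibroblast genes summed to 939 to 1501 TPM in the normal group and 1317 to 1716 TPM in the DM1 group. Of the 7 tested, *Dpt*, *Lum*, and *Dcn* rose, *Dcn* with its call kept in 2 of 6 fits with a library removed (adjusted p up to 0.115). *Pdgfra*, *Ly6a*, *Pi16*, and *Clec3b* did not pass the test (0.31, 0.22, 0.12, and -0.02 on the log2 scale). *Adipoq*, *Cidec*, *Fabp4*, and *Lep* of adipocytes and *Ptprc* and *Adgre1* of macrophages had 0 counts in all 6 libraries. The macrophage genes *Cd68* and *Csf1r* were detected in each library, with 174 to 323 and 6 to 45 counts, and did not pass the test. Of 6 genes in each list, 3 of osteoblasts, 1 of adipocytes, 2 of macrophages, and 1 of endothelial cells had enough counts to be tested. Some genes of these lists were detected: *Runx2* of osteoblasts at 40.1 to 55.1 CPM (counts scaled for library size) and *Pparg* of adipocytes at 7.55 to 10.1 CPM did not pass the test, while *Dmp1* of osteoblasts (-1.96 on the log2 scale, adjusted p = 9.16e-04) and *Tek* of endothelial cells (-0.95, adjusted p = 0.0107) fell. Their part in the results was not tested. In bulk RNA, fewer cells of a type and less RNA per cell cannot be told apart.

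The main comparison asked which parts of the cyclin D, CDK inhibitor, and pocket protein set differed between DM1 and normal cells at day 4. *Ccnd3*, *Ccnd2*, *Rb1*, and *Cdkn1a* were lower in the DM1 group, and no member was higher. The largest changes were those of 2 cyclins, *Ccnd3*, which fell by 59.0%, and *Ccnd2*, which fell by 54.6%. *Rb1* fell by 26.0% and *Cdkn1a* fell by 20.7%. *Ccnd1*, *Cdk4*, *Cdk6*, *Cdkn1b*, *Rbl1*, and *Rbl2* did not pass the test, which was edgeR's quasi-likelihood test with a Benjamini-Hochberg adjusted p-value under 0.05 over all genes. The 4 members that passed in the lower direction stood against 8.73% of all tested genes, and the 0 that passed in the higher direction against 7.13% (0 members were also higher at an unadjusted p-value under 0.05, and 0 were higher by DESeq2 or limma). With an absolute log2 fold change over 1 added, the cutoffs of the study, 2 members were lower, where 0.816% of all genes were, and 0 were higher, where 1.36% were. In CPM (counts scaled for library size), each DM1 library lay below each normal library in 7 of the 10 members, which held for 19.3% of all genes. The 3 members with overlapping groups were *Cdk4*, *Cdkn1b*, and *Rbl1*. In TPM the groups of *Ccnd1*, *Cdk6*, and *Rbl2* overlapped as well and those of *Rbl1* did not. The share of all genes with no overlap was not counted on that scale. The median log2 fold change was -0.18 over the members and 0.02 over all tested genes. Without CUG5 replicate 3 only *Ccnd2* and *Ccnd3* of the members passed the test, and 485 of 19835 genes were lower, against 1660 of 19005 in the main fit. The same count of 2 members was found by limma on log2(TPM + 1) and log2(TPM + 0.1), where 816 and 850 of 19005 genes were lower.

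**Figure D1:**
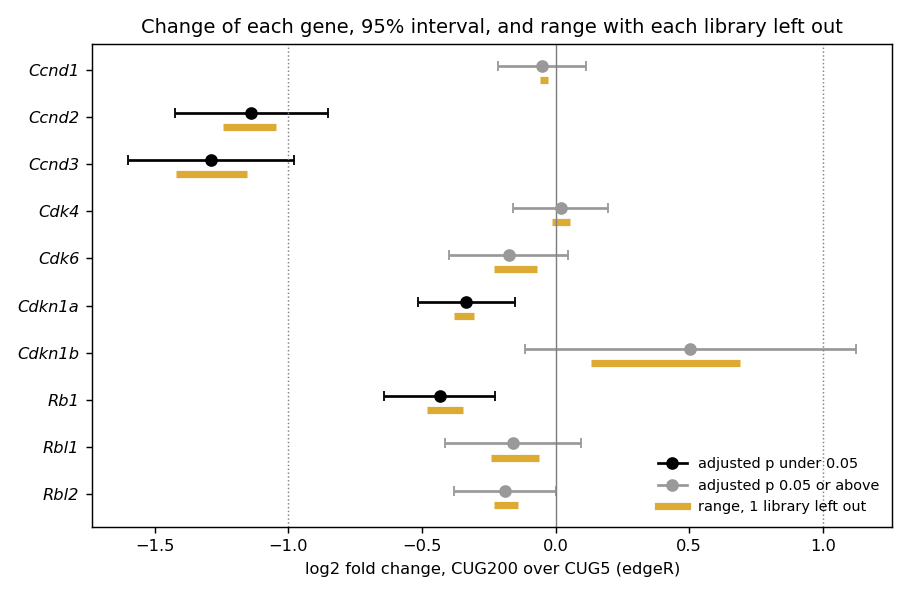
Log2 fold change of each gene, CUG200 over CUG5, from edgeR (points) with its 95% interval (thin bars) and the range of the estimate when each of the 6 libraries was left out in turn (thick yellow bars). Black marks an adjusted p-value under 0.05; *Ccnd2* and *Ccnd3* lie beyond the dotted line at -1, *Rb1* and *Cdkn1a* between that line and 0, and the interval of *Cdkn1b* is the widest.

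*Ccnd3* encodes cyclin D3, the D-type cyclin that is known to accumulate in differentiating myoblasts and to bind RB1 in myotubes. It has 21 annotated transcripts (chr17:47505051-47599691 in GRCm38, plus strand). Its level, in CPM scaled by TMM factors, was 213, 195, and 199.8 in the CUG5 libraries and 99.0, 66.8, and 83.2 in the CUG200 libraries. Every DM1 library was thus well below every normal library, while the DM1 libraries differed among themselves by a coefficient of variation of 19.4%, against 4.59% in the normal group. Its log2 fold change, -1.29 with a standard error of 0.136 (adjusted p = 0.00181), stayed between -1.42 and -1.15 with any library left out, and the call held in all 6 of those fits. *Ccnd3* shares 361 exonic bases with *Bysl* on the other strand, which had 1977 to 3140 counts in the normal libraries and 1395 to 1680 in the DM1 libraries. Whether the counting used strand is not given in the sources used here. With the counts of overlapping genes added together the log2 fold change was -1.15.

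*Ccnd2*, for cyclin D2, is a target of growth factor signals in many cell types (chr6:127125162-127152193, minus strand). It was measured at 83.3, 103, and 107.7 CPM in the CUG5 libraries and at 39.4, 50.2, and 43.9 CPM in the CUG200 libraries. The groups did not overlap, and the lowest normal library was well above the highest DM1 library. The fitted log2 change was -1.14 ± 0.126 (standard error, adjusted p = 0.00198), with a range of -1.24 to -1.04 and 6 of 6 calls kept when a library was left out. The opposite-strand genes *Gm43126* and *9330179D12Rik* share 372 and 368 exonic bases with it, but held at most 17 counts in any library.

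*Ccnd1*, for cyclin D1, the D-type cyclin most closely tied to proliferating myoblasts, showed close to the same level in both groups (chr7:144929931-144939925, minus strand). It had 149, 150.4, and 148 CPM in the CUG5 libraries and 142, 146, and 144 CPM in the CUG200 libraries. The coefficients of variation, 0.938% and 1.27%, were small enough that the groups did not overlap in spite of a log2 difference of only -0.05 ± 0.0728 (standard error, adjusted p = 0.703). Its 95% interval ran from -0.22 to 0.12, so a change as large as that of *Ccnd2* or *Ccnd3* lies outside it. *Ccnd1* shares 1100 exonic bases with *LTO1* on the other strand, which had 658 to 1287 counts per library, against 9234 to 12552 for *Ccnd1*.

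**Figure D2:**
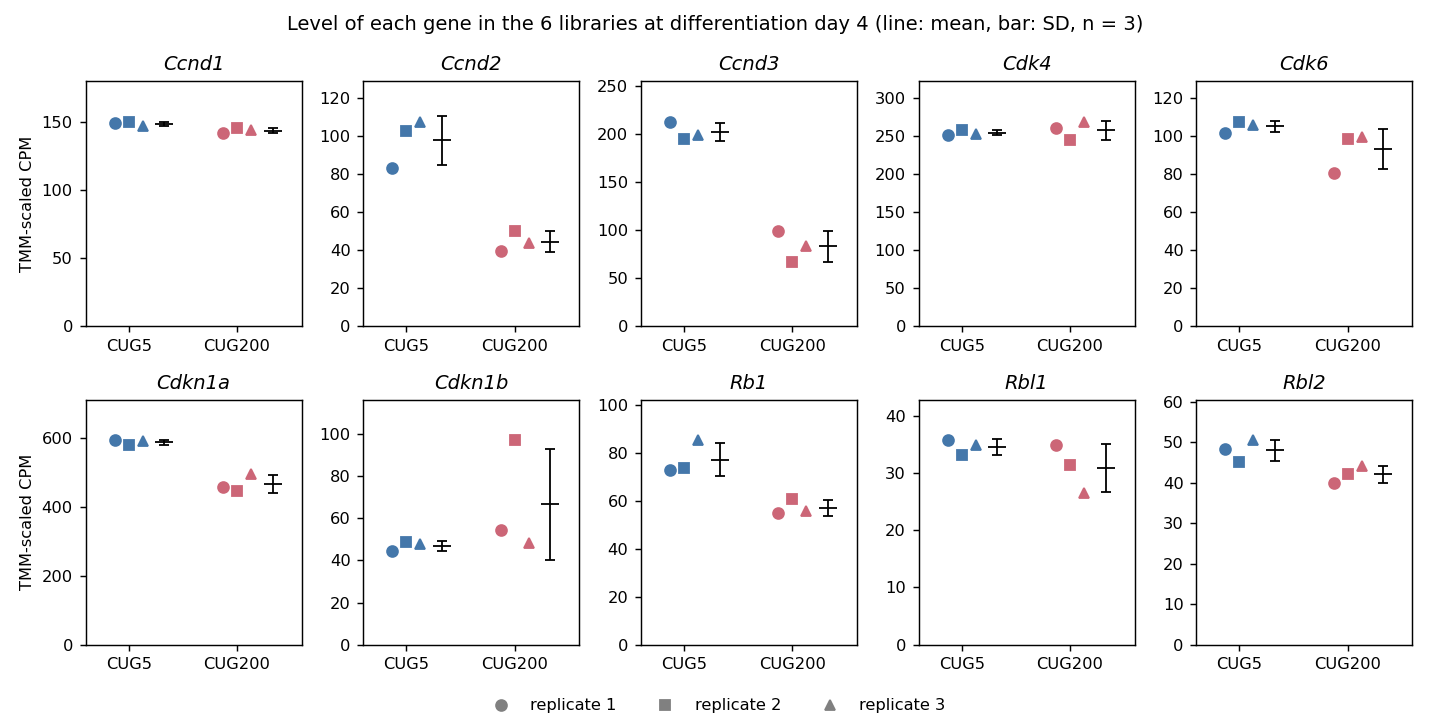
Level of each of the 10 genes in the 6 libraries, in TMM-scaled CPM on axes that start at 0; symbols mark replicates 1 to 3, and the line and bar beside each group its mean and SD (n = 3). The CUG200 libraries lie far below the CUG5 libraries for *Ccnd2* and *Ccnd3* and by a smaller step for *Cdkn1a* and *Rb1*, and CUG200 replicate 2 stands apart at 97.2 CPM for *Cdkn1b*.

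Because TPM values are scaled for length, the mRNA of the 3 cyclins could be added. The summed level was 329.8, 259, and 249 TPM in the CUG5 libraries and 135, 124, and 152 TPM in the CUG200 libraries. All DM1 libraries were lower, and the log2 ratio of the means was -1.03 (exact two-sided permutation test, p = 0.1, the smallest value that 3 libraries against 3 can give). *Ccnd3* made up 65.0% ± 4.45 of this sum in the normal group and 46.1% ± 5.32 in the DM1 group (SD, n = 3 each). The share of *Ccnd1* was 24.8% ± 2.37 and 45.1% ± 3.83, so that in the DM1 group it was close to that of *Ccnd3*. Neither share overlapped between the groups (exact permutation test, adjusted p = 0.15 over 3 shares for each). The share of *Ccnd2* was 10.2% ± 2.13 and 8.79% ± 1.49, and its groups overlapped (adjusted p = 0.4, same exact test).

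The ratios between cyclins within a library put the difference in change between the genes to a test of its own. The log2 ratio of *Ccnd3* to *Ccnd1* in TPM was 1.67, 1.26, and 1.25 in the CUG5 libraries and 0.33, -0.24, and -0.01 in the CUG200 libraries. That of *Ccnd2* to *Ccnd1* was -1.49, -1.28, and -1.13 in the CUG5 libraries and -2.50, -2.25, and -2.36 in the CUG200 libraries. Both ratios were lower in each DM1 library than in any normal library, by 1.37 and 1.07 on average (exact permutation test, adjusted p = 0.2 for each over 8 ratios, where p = 0.1 is the smallest before adjustment). The ratio of *Ccnd3* to *Ccnd2* differed by -0.29 with overlapping groups (adjusted p = 0.457, same exact test), and by -0.51 to -0.06 with a library removed. The *Ccnd3* TPM level varied more among normal libraries (231, 163, and 154) than its CPM level did, and CUG5 replicate 1 was the highest on both scales.

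**Figure D3:**
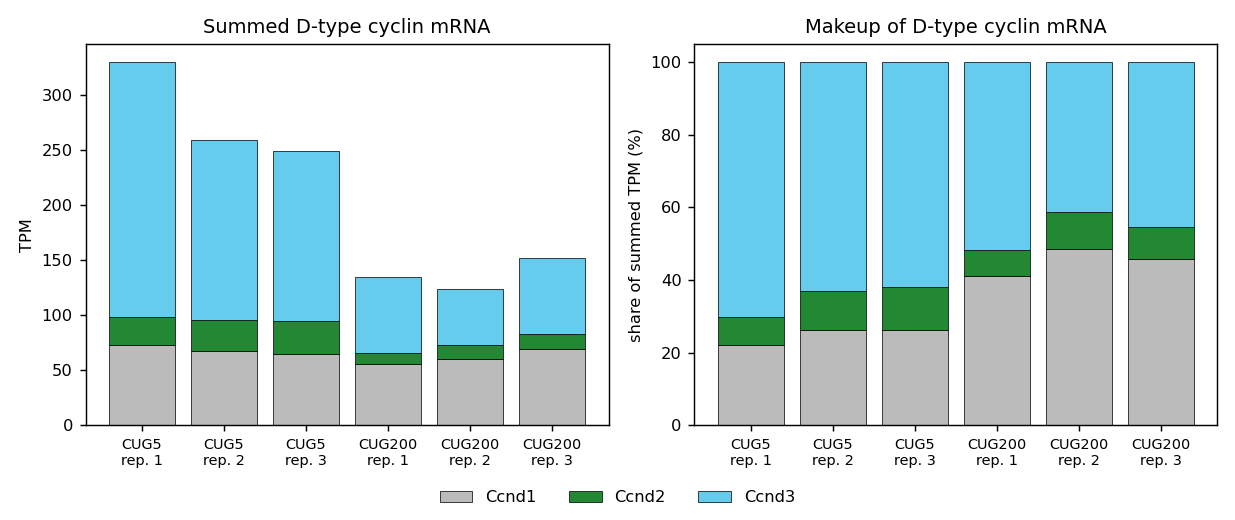
Summed TPM of the 3 D-type cyclin genes in each library (left, bars from 0) and the share of each gene in that sum in percent (right). The sum is 249 to 329.8 TPM in the CUG5 libraries and 124 to 152 TPM in the CUG200 libraries, and the *Ccnd3* share drops while the *Ccnd1* share grows.

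The kinases that these cyclins activate did not pass the test. *Cdk4* (chr10:127063534-127067920, plus strand) was at 252, 259, and 253 CPM in the CUG5 libraries and at 260.5, 245, and 269 CPM in the CUG200 libraries. The groups overlapped, and the log2 fold change was 0.02 (standard error 0.0782, adjusted p = 0.903), with a 95% interval from -0.16 to 0.20. *Cdk6* (chr5:3341485-3531008, plus strand), whose fall is known to go with differentiation in several lineages, was at 102, 107, and 106 CPM in the CUG5 libraries and at 80.7, 98.5, and 99.7 CPM in the CUG200 libraries. CUG200 replicate 1 was the lowest of these, and without it the log2 fold change moved from -0.18 (adjusted p = 0.268) to -0.07. The summed level of both kinases was 327 ± 5.46 TPM in the normal group and 311 ± 52.2 TPM in the DM1 group, and the groups overlapped. The log2 ratio of *Cdk6* to *Cdk4* was lower by 0.26 on average in the DM1 group with no overlap (exact permutation test, adjusted p = 0.2). *Cdk4* shares 641 exonic bases with *Tspan31* on the other strand, which had 7300 to 10006 counts per library.

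Among the CDK inhibitors, *Cdkn1a* fell and *Cdkn1b* did not pass the test. *Cdkn1a* encodes p21, which MyoD can induce as myoblasts leave the cell cycle (chr17:29090976-29100727, plus strand). It was at 592.6, 579, and 591 CPM in the CUG5 libraries and at 457, 447, and 495 CPM in the CUG200 libraries. All DM1 libraries were lower than all normal libraries, but the step was small at -0.33 ± 0.0801 on the log2 scale (standard error, adjusted p = 0.0257). The fold change stayed between -0.38 and -0.30 with any library left out, while the adjusted p-value ran from 0.0108 to 0.117 and passed in 2 of those 6 fits, those without CUG200 replicate 1 and CUG200 replicate 3. With limma on TPM values it was 0.0680 at the same sign. The opposite-strand gene *1700023B13Rik* shares 273 exonic bases with it and had 382 to 636 counts per library, against 31813 to 49822 for *Cdkn1a*.

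*Cdkn1b* encodes p27, whose protein level is set largely by degradation (chr6:134920401-134925513, plus strand). It was at 44.4, 48.8, and 48.0 CPM in the CUG5 libraries and at 54.8, 97.2, and 48.4 CPM in the CUG200 libraries. The groups overlapped, and CUG200 replicate 2 was far above the other 5 libraries. The log2 fold change of 0.50 had a wide 95% interval, from -0.12 to 1.12 (adjusted p = 0.248), and was 0.13 without that library. No annotated gene overlaps *Cdkn1b*. The summed level of both inhibitors was 548 ± 35.1 TPM in the normal group and 416 ± 56.3 TPM in the DM1 group (log2 ratio of means -0.40, no overlap, exact permutation test, p = 0.1). The log2 ratio of *Cdkn1b* to *Cdkn1a* was higher by 0.74 in the DM1 group, with no overlap between -4.70 to -4.44 and -4.35 to -3.04 (exact permutation test, adjusted p = 0.2). CUG200 replicate 2 was again the highest, and the difference was 0.35 without it and 1.01 without CUG200 replicate 3.

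Of the pocket protein genes only *Rb1* passed the test. *Rb1*, which keeps the cell cycle exit of myotubes irreversible, lies on the minus strand of chromosome 14 (chr14:73183673-73325822). It was at 72.7, 73.5, and 85.2 CPM in the CUG5 libraries and at 54.7, 60.9, and 55.7 CPM in the CUG200 libraries. The groups did not overlap, and CUG5 replicate 3 was the highest. The log2 fold change was -0.43 (standard error 0.0915, adjusted p = 0.0160). Without CUG5 replicate 3 it was -0.35 (adjusted p = 0.0875), and the other 5 fits that left out a library kept the call. Within its span *Rb1* shares 488 exonic bases with *Rcbtb2* and 408 with *Lpar6* on the other strand, and with the counts of overlapping genes added the log2 fold change was -0.27 (adjusted p = 0.0553).

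*Rbl1* (chr2:157145893-157204534, minus strand), for the p107 of cycling cells, was at 35.8, 33.2, and 34.9 CPM in the CUG5 libraries and at 35.0, 31.4, and 26.6 CPM in the CUG200 libraries. The groups overlapped, and CUG200 replicate 3 was the lowest (log2 fold change -0.16, adjusted p = 0.387, 95% interval -0.41 to 0.10). Without that library the value was -0.06, and without CUG200 replicate 1 it was -0.24. *Rbl2* (chr8:91070057-91123844, plus strand), for the p130 of quiescent cells, was at 48.2, 45.2, and 50.4 CPM in the CUG5 libraries and at 39.96, 42.1, and 44.2 CPM in the CUG200 libraries. Its groups did not overlap, but the log2 fold change of -0.19 did not pass the test (adjusted p = 0.168). *Rbl2* shares 693 exonic bases with *Aktip* on the other strand, whose counts of 3125 to 5601 per library were of the same order as its own, and with overlapping genes added the value was 0.20, with the direction turned. The summed pocket protein mRNA was 70.0 ± 2.32 TPM in the normal group and 55.0 ± 5.97 TPM in the DM1 group (log2 ratio of means -0.35, no overlap, exact permutation test, p = 0.1). The log2 ratios of *Rbl1* to *Rb1*, *Rbl2* to *Rb1*, and *Rbl2* to *Rbl1* differed by 0.19, 0.25, and 0.06 with overlapping groups (adjusted p = 0.4, 0.4, and 1, same exact test, which cannot pass 0.05 with 3 libraries against 3). With a library removed they ranged from 0.10 to 0.27, from 0.10 to 0.41, and from -0.16 to 0.21. In CPM the ratio of *Rbl2* to *Rb1* differed by 0.24 with no overlap (exact permutation test, p = 0.1).

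The order of the levels, compared in TPM, was led in both groups by *Cdkn1a*, at 525 ± 35.7 TPM in the normal group and 387 ± 59.6 TPM in the DM1 group, followed by *Cdk4* at 308 ± 6.80 and 296 ± 49.2 TPM, and these 2 genes overlapped in the DM1 group. In the normal group *Ccnd3* came next at 183 ± 42.0 TPM, clear of *Ccnd1* at 68.6 ± 3.88 TPM. In the DM1 group *Ccnd3* was at 63.3 ± 10.7 TPM and overlapped *Ccnd1* at 61.8 ± 7.19 TPM. The other 6 genes lay between 13.2 and 32.9 TPM in the normal group, in the order *Rb1*, *Ccnd2*, *Rbl2*, *Cdkn1b*, *Cdk6*, and *Rbl1*, and only *Rbl2* and *Cdkn1b* overlapped as neighbors. In the DM1 group they lay between 10.7 and 29.1 TPM, in the order *Cdkn1b*, *Rb1*, *Rbl2*, *Cdk6*, *Ccnd2*, and *Rbl1*, and each overlapped the next. *Ccnd2* thus stood at place 6 of 10 in the normal group (27.9 ± 2.00 TPM) and at place 9 in the DM1 group (11.99 ± 1.97 TPM).

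Promoter sequences were available from RefSeq (GRCm38.p6) for 7 of the members, with 9 start sites in all, and not for *Ccnd1*, *Ccnd2*, and *Rb1*. The 250 bases before each start were searched on both strands for the E-box CANNTG, the sequence that MyoD and MYC family proteins bind, for the E2F words TTTGGCGC, TTTCGCGC, and TTTCCCGC, and for the GC box GGGCGG; no matches overlapped. These are shown for *Ccnd3* and *Cdkn1a*, which fell and have 2 starts each, and for *Cdk4* and *Rbl1*, which did not pass the test, with the matches in capitals and the strand of the gene read 5′ to 3′.
Ccnd3, chr17:47504801-47505050, plus strand: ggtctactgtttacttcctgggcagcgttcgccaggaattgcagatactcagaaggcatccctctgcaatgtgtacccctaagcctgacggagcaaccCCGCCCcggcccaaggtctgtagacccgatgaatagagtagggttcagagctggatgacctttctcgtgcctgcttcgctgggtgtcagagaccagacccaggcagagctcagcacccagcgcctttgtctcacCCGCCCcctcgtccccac
Ccnd3, chr17:47593217-47593466, plus strand: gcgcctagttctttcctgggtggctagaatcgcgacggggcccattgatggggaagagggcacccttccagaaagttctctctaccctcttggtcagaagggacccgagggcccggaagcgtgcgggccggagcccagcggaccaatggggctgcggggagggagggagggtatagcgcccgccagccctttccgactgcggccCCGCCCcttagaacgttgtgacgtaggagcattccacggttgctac
Cdkn1a, chr17:29090729-29090978, plus strand: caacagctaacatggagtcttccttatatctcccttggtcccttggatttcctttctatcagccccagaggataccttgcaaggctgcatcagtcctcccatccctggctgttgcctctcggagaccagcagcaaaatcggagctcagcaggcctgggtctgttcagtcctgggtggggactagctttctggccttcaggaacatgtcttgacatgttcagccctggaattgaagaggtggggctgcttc
Cdkn1a, chr17:29093519-29093768, plus strand: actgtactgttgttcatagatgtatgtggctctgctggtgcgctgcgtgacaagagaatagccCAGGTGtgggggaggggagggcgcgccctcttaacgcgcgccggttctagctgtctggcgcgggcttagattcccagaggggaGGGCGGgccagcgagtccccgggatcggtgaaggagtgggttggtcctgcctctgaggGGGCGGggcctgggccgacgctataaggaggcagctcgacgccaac
Cdk4, chr10:127063285-127063534, plus strand: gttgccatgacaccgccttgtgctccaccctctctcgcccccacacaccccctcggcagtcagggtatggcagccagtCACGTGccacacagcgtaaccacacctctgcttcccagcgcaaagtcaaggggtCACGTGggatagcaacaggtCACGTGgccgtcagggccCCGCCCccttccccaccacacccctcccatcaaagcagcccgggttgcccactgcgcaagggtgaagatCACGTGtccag
Rbl1, chr2:157204535-157204784, minus strand: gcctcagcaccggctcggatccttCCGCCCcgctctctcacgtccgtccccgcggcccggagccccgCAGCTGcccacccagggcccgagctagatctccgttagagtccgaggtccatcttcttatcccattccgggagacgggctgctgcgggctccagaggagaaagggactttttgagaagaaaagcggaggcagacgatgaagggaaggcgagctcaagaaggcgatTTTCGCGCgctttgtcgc

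The windows differed in what they held. The first *Ccnd3* window has GC boxes 152 and 18 bases before the start and the second has 1 at 46 bases, all on the reverse strand, so that the printed strand shows CCGCCC, and neither has an E-box or an E2F word. The second *Cdkn1a* window has the E-box CAGGTG 187 bases and GC boxes 104 and 46 bases before the start, whereas the first holds none of the motifs. *Cdk4* has 4 copies of the E-box CACGTG, at 172, 118, 98, and 11 bases, and 1 GC box. *Rbl1* has the E-box CAGCTG at 183 bases, the E2F word TTTCGCGC at 18 bases, and a GC box at 226 bases. Among the 7 members with a window, it was the only member whose window held an E2F word. Of the windows not printed, that of *Cdk6* has 1 CACGTG, that of *Cdkn1b* 1 GC box, and that of *Rbl2* no match. Among all 32851 promoter windows of the same length, 66.2% held CANNTG, 13.0% CAGCTG, 1.53% an E2F word, and 32.7% GGGCGG.

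Pocket proteins act through E2F factors and the MuvB complex. Of 10 tested E2F and DP factor genes, *E2f6* and *E2f2* fell (log2 fold changes -0.49 and -0.49, adjusted p = 0.0298 and 0.0350) and none rose, with a median of -0.31 (-0.15 without CUG200 replicate 1). *E2f2* is an activator and *E2f6* a repressor of E2F target genes. Of the 7 genes of the MuvB complex and its partners, which p130 and p107 join to form the DREAM repressor, *Rbbp4* (-0.36, adjusted p = 0.0141) and *Lin54* (-0.49, adjusted p = 0.0294) fell. Without CUG5 replicate 1, 2, or 3 or CUG200 replicate 2, none of the genes in either list passed the test, and without CUG200 replicate 3 the E2F and DP list had 4 lower genes.

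The E2F target genes of S phase went in both directions. Of 18 tested, 6 fell and 2 rose, with a median log2 fold change of -0.15. Of the MCM helicase genes 4 fell, with *Mcm2* at -0.57 (adjusted p = 0.0116), *Mcm3* at -0.45 (adjusted p = 0.0261), *Mcm5* at -0.43 (adjusted p = 0.0193), and *Mcm4* at -0.36 (adjusted p = 0.0169), as did its loader *Cdt1* at -0.61 (adjusted p = 0.0151) and the uracil glycosylase gene *Ung* at -0.87 (adjusted p = 0.0494). *Mcm6* and *Mcm7* were at -0.20 and 0.16 (adjusted p = 0.213 and 0.351). *Pcna*, the sliding clamp of replication, rose by 0.43 (adjusted p = 0.0373). *Pcna* was at 167, 176, and 154 CPM in the CUG5 libraries and at 255, 226, and 190.3 CPM in the CUG200 libraries, with no overlap. Over the fits that left out a library the counts ranged from 0 to 7 lower and from 0 to 3 higher, with 0 of both without CUG5 replicate 1, CUG5 replicate 3, or CUG200 replicate 2, 2 lower and 0 higher without CUG5 replicate 2, 7 lower and 0 higher without CUG200 replicate 1, and 5 lower and 3 higher without CUG200 replicate 3. By limma on log2(TPM + 1), 2 were lower and 0 higher.

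Of 10 tested other cyclins and CDKs, 1 fell, *Cdk2*, the kinase of cyclin E and cyclin A. It was at 95.8, 59.1, and 93.5 CPM in the CUG5 libraries and at 52.5, 49.8, and 55.9 CPM in the CUG200 libraries, so CUG5 replicate 2 lay close to the DM1 libraries. Its log2 fold change was -0.65 (adjusted p = 0.0403), and the call was kept only without CUG5 replicate 2 among the 6 fits with a library removed. Without CUG200 replicate 3, 2 genes of this list were higher and 0 lower. At an unadjusted p-value under 0.05, 2 genes were higher, *Cdk7* and *Ccnb2*, with log2 fold changes of 0.32 and 0.24 (adjusted p = 0.0739 and 0.109). The cyclin genes *Ccnb1* and *Ccna2* had log2 fold changes of 0.16 and 0.06 (adjusted p = 0.471 and 0.649). None of the 3 tested other CDK inhibitors passed the test in the main edgeR fit (1 was higher and 1 lower at an unadjusted p-value under 0.05, and 0 passed by DESeq2). With a replicate block added to the model, *Cdkn2d* passed as higher. *Cdkn2d*, for p19, had a log2 fold change of 0.43 (adjusted p = 0.144), *Cdkn2c*, for p18, of 0.08 (adjusted p = 0.675), and *Cdkn1c*, for p57, of -0.81 from 34 to 100 counts per library (adjusted p = 0.0931). *Cdkn2a* and *Cdkn2b* had 0 counts in all 6 libraries.

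Among 11 tested genes for the turnover of D-type cyclins and p27, 4 fell and 0 rose (1 was higher at an unadjusted p-value under 0.05, and 0 by DESeq2). *Gsk3b*, a kinase that marks cyclin D1 for degradation, was at 58.4, 105.5, and 90.2 CPM in the CUG5 libraries and at 30.3, 39.2, and 46.8 CPM in the CUG200 libraries. Its log2 fold change was -1.13 (adjusted p = 0.0281), which passed with 1 of the 6 libraries removed. *Cul4a* and *Ddb1*, of a ubiquitin ligase that acts on cyclin D and other substrates, fell by 0.54 and 0.43 in log2 units (adjusted p = 0.00802 and 0.0268), and *Cul1*, the scaffold of SCF ligases, fell by 0.45 (adjusted p = 0.0287). *Cul4a* kept the call whichever of the 6 libraries was removed, and the count of genes that fell was then 1 to 3, with 1 without CUG5 replicate 3 and without CUG200 replicate 2. Without CUG200 replicate 3, *Cks1b*, a partner of SKP2, passed as higher (adjusted p = 0.0307, against 0.124 with all libraries). *Skp2*, the F-box protein that targets p27, was at 15.9, 16.5, and 16.3 CPM in the CUG5 libraries and at 13.3, 14.2, and 0 CPM in the CUG200 libraries. It was listed at 0 in CUG200 replicate 3 alone and was not called (adjusted p = 0.776). Of 15 p53 target genes, tested because p53 also drives *Cdkn1a*, 1 fell and 0 rose, where 8.73% and 7.13% of all tested genes did. The gene that fell was *Aen* (-0.57, adjusted p = 0.0121). At an unadjusted p-value under 0.05, 2 were lower and 0 higher, and DESeq2 called 2 lower and 0 higher. The list median was 0.04. The call of *Aen* was lost without CUG5 replicate 1, CUG5 replicate 3, or CUG200 replicate 2 (adjusted p up to 0.0633).

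**Figure D4:**
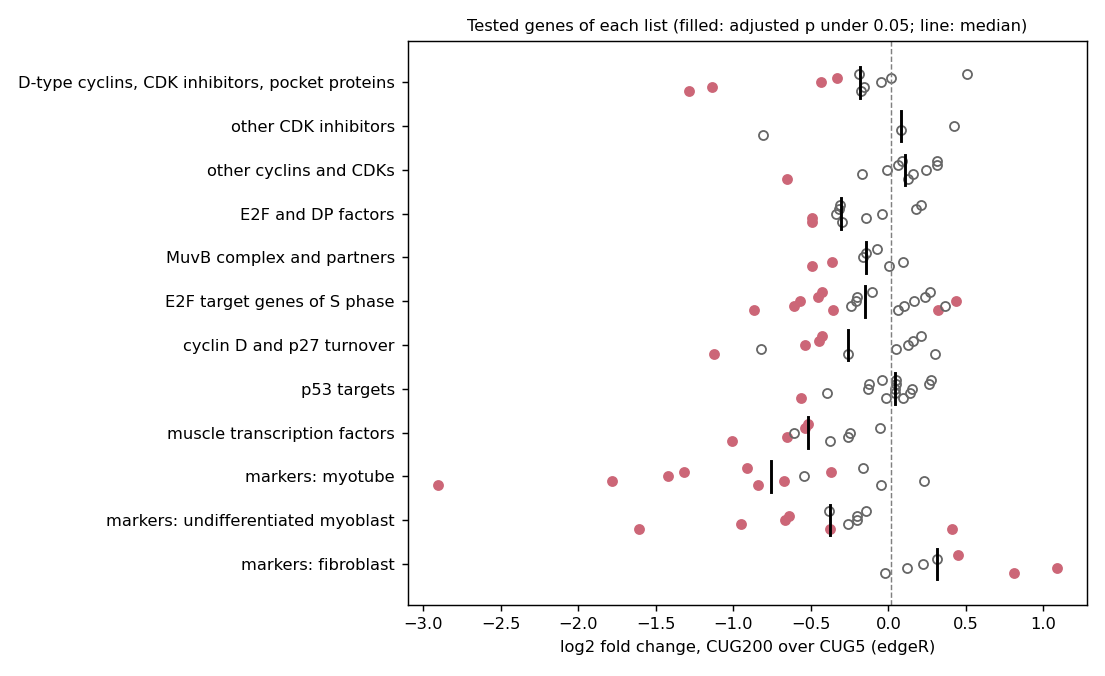
Log2 fold changes (edgeR, CUG200 over CUG5) of the tested genes of each list; filled points had an adjusted p-value under 0.05, the vertical bar is the median of the list, and the dashed line the median of all tested genes at 0.02. The medians of the muscle lists lie at -0.52 and -0.76, that of the p53 targets at 0.04, and that of the fibroblast genes at 0.31.

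Genes of muscle differentiation were counted in the same fit. Of 9 muscle transcription factor genes 4 fell, among them *Myog*, *Myod1*, and *Mef2c*, with log2 fold changes of -0.65, -0.52, and -1.01 (adjusted p = 0.00227, 0.0129, and 0.0471), and the list median was -0.52 (-0.34 without CUG200 replicate 1). *Mef2c* was at -0.62 without CUG5 replicate 3, the library where it was highest, and its call was kept only without that library and without CUG5 replicate 1 (adjusted p up to 0.186). *Myog*, for the myogenin that drives terminal differentiation, was at 323, 322, and 319 CPM in the CUG5 libraries and at 209.9, 208, and 195 CPM in the CUG200 libraries. *Myod1*, for MyoD, was at 60.6, 59.3, and 65.1 CPM in the CUG5 libraries and at 39.2, 40.8, and 49.1 CPM in the CUG200 libraries. Of the 12 myotube markers 8 fell, led by *Myh8* (-2.90, adjusted p = 7.65e-05), a perinatal myosin heavy chain, and the median was -0.76. None rose, but *Mymx*, for the fusion protein myomixer, was higher at an unadjusted p-value of 0.0146 (0.23, adjusted p = 0.0732) and passed without CUG200 replicate 3. Without CUG200 replicate 2 the count of muscle factors that passed was 2, and without any 1 library that of myotube markers was 6 to 8. The part of the differentiation state in the lower *Ccnd3*, *Ccnd2*, *Rb1*, and *Cdkn1a* levels was not tested.

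For 4 members the genes with the most similar profile were listed, by the root mean square difference of centered log2 CPM over the 6 libraries among 9661 genes with a mean of at least 10 CPM. Nearest to *Ccnd3* were *Mfsd2a*, *Arpp21*, and *Aldh3a1* (0.150, 0.160, and 0.169, against a median of 0.667 over all genes), with log2 fold changes of -1.08, -1.07, and -1.38. Nearest to *Ccnd2* were *Fzd3*, *Trim16*, and *Hspb7* (0.125, 0.131, and 0.134, median 0.589). *Cdkn1a* was matched more closely, by *Rapgef2*, *Chrna1*, and *Litaf* (0.0179, 0.0210, and 0.0212, median 0.216). *Chrna1*, the alpha subunit of the muscle acetylcholine receptor, was at 1858, 1897, and 1884 CPM in the CUG5 libraries and at 1439, 1436, and 1567 CPM in the CUG200 libraries. The profile of *Ccnd1*, flat across the libraries, was nearest to those of *Stom*, *Copz1*, and *Psmc4* (0.0108, 0.0165, and 0.0166, median 0.173).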

How the data were processed

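The authors trimmed the reads with Trim Galore, aligned them to GRCm38 with HISAT2 and quantified genes with StringTie. Tool versions and the strand setting are not given in the sources used here. They deposited counts per gene without normalization, and for each library the coverage (signal), FPKM and TPM of every gene. From the deposited coverage a count was found to stand for 75 bases of alignment (99.8% of 34267 genes with 1 transcript), with 61707889 to 80957325 counts per library. The commonest low count was 4, and divided by 4 the totals were 15426972 to 20239331; a test on these was an alternative. The FPKM values the authors deposited served as an alternative for the sums, shares and ratios.

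Genes were tested with edgeR 4.0.16 in R 4.3.3 (filterByExpr with a minimum count of 10, TMM, robust quasi-likelihood test, Benjamini-Hochberg over 19005 genes). Sums, shares and ratios of the deposited TPM values were compared by exact two-sided permutation tests over the 6 libraries, with adjustment over the 3 shares and the 8 ratios. On data simulated for this comparison, with 200 of 18497 genes changed by 1 on the log2 scale, edgeR recovered 165 and called 8 others. Alternatives were DESeq2 1.42.0, limma 3.58.1 on log2(TPM + 1) and log2(TPM + 0.1), other scalings and filters, counts divided by 4, overlapping genes added, and each library left out. No 2 libraries agreed within sampling noise (chi-square per degree of freedom 10.7 to 66.8). Gene positions were from GENCODE M21, which held 55240 of the 55421 genes. All members were named, and of each other list the genes that passed, up to 5 per direction with the smallest p-values; *Ung* and the genes given with values that did not pass, such as *Skp2*, were named after their values were seen. Some genes that passed are not reported here by name. Members and lists were chosen with earlier results of these data known.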

Additional observations from a re-analysis of the deposited data

How the results depend on the processing

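Of 180 refits of the 10 member genes, 18 for each, 170 kept the side of the threshold and the direction of a called value. *Ccnd2* and *Ccnd3* kept their calls in all 18 alternatives. *Cdkn1a* lost its call by limma on log2(TPM + 1) (-0.45, adjusted p = 0.0680) and log2(TPM + 0.1) (-0.45, adjusted p = 0.0642), and its log2 fold change ranged from -0.38 to -0.30 with 1 library left out. *Rb1* lost its call by the same limma fits (-0.46 and -0.48, adjusted p = 0.0587 and 0.0572) and with overlapping genes added (-0.27), and ranged from -0.48 to -0.35 with 1 library left out. Among the members, 2 were lower by both limma fits, and 2 to 4 with 1 library left out. Over all genes, limma on log2(TPM + 1) and log2(TPM + 0.1) called 427 and 434 higher and 816 and 850 lower, of which 61 and 171 higher and 79 and 194 lower were past the cutoffs. With overlapping genes added, 2686 were higher and 2929 lower, and 402 and 238 past the cutoffs. With 1 library left out, 543 to 1678 were higher and 485 to 2111 lower, and 181 to 271 and 91 to 192 past the cutoffs. In CPM without length scaling the summed D-type cyclins differed by -0.73 on the log2 scale and the *Ccnd2* share by -5.33 percentage points. In FPKM the sum of *Cdk4* and *Cdk6* differed by 0.02, against -0.07 in TPM. The cause of these differences was not tested. Same-numbered libraries deviated together at most weakly (r from 0.02 to 0.07 for the 3 pairs, against -0.07 to 0.05 for other pairs). Of the 6 libraries, 4 correlated best with their own number. With a replicate block 1326 genes were higher and 1497 lower, with 4 members lower. Of the 3 other CDK inhibitors, *Cdkn2d* alone then passed, as higher. In the same fit 3 E2F and DP factor genes were lower, and of the E2F target genes of S phase 5 were lower and 2 higher.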
